A study of Rattus norvegicus with 5 samples.

Results

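The transcription factors Foxa2, Mef2c, Runx1, Bcl11b, Creb5, Sox4 and Sox11 were followed through 4 zones of the rat mandibular condylar cartilage (MCC) and in femoral condylar cartilage (FCC). Every probe set on the array whose only gene symbol was 1 of these 7 genes was taken, which gave 21 of the 31042 probe sets that are not controls. Sox4 had 7 of them, Creb5 5, Bcl11b 3, Mef2c and Runx1 2 each, and Foxa2 and Sox11 1 each. The 7 genes were chosen by their values on these same arrays, so all values here are a description.

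The samples were laser-captured cells from wild type, male, 5-week-old Sprague-Dawley rat tissue, with no treatment. The MCC, the cartilage cap of the jaw joint, gave the fibrous zone (FZ) at its surface, then the proliferative zone (PZ), the mature chondrocyte zone (MZ) and the hypertrophic chondrocyte zone (HZ). FCC, a cartilage of the knee, served as the reference and held chondrocytes of its middle and deep layers, according to the methods. Lysates of many sections were pooled into 1 RNA sample per group, with 30 sections for each zone in the labels and more for FZ in the methods, and the sources used here do not state how many animals stand behind a pool. Each of the 5 groups had 1 array. Without replicates no difference could be tested, and p-values and SDs between samples are not given.

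Each value is the log2 signal of a probe set relative to its own median over the 5 arrays, so that 0 is the middle array for that probe set and a difference of 2 is 4-fold. The values carry no expression level, and levels of different genes cannot be compared. Fewer cells of a type and less RNA per cell cannot be told apart in such samples. The SD between probe sets of 1 gene is given where there are several, and it describes the probe sets and not the animals.

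Cartilage cells pass through an ordered series of states, from flattened surface cells and dividing precursors to matrix-producing and then hypertrophic chondrocytes, and transcription factors set the genes each state uses. FOXA factors open closed chromatin and are known from liver, gut and hypertrophic chondrocytes. MEF2C drives muscle differentiation and chondrocyte hypertrophy, and RUNX1 is a regulator of blood formation that is also used in skeletal precursors. BCL11B is a zinc-finger factor required in T lymphocytes and in craniofacial development, CREB5 is a basic leucine zipper factor of the CREB/ATF class linked to articular cartilage, and SOX4 and SOX11 are closely related factors of the SOXC group that act in progenitor cells.

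The 250 bases before the transcription start are shown for Foxa2 and Creb5, since these were the members with a 4-fold difference that had a promoter entry in the RefSeq table used here (rat build GRCr8). Of the 7 members, Foxa2, Runx1, Creb5 and Sox11 had an entry, among 27457 promoters in all. The Foxa2 window lies on the minus strand at chr3:155927509-155927758, and the Creb5 window on the plus strand at chr4:83723975-83724224. Both are written 5′ to 3′ in the direction of the gene, and capitals mark TGTTT on either strand, a short form of the core bound by forkhead factors such as FOXA2.
Foxa2: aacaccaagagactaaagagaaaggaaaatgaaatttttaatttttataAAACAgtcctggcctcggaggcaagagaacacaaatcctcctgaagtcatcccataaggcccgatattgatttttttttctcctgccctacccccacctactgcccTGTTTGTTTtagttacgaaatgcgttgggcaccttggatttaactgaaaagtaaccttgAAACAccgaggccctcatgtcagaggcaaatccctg
Creb5: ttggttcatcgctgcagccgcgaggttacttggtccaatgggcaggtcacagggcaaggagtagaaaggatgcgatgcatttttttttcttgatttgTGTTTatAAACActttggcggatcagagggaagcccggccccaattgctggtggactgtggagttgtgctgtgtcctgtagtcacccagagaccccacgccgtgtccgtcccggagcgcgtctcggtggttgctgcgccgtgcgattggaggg
The Foxa2 window held 4 matches to TGTTT, of which one pair overlapped, and the Creb5 window held 2. The Runx1 window held 2 and the Sox11 window 0. At least 1 match was present in 46.6% of all promoters, so these letters are common. The longer forkhead core TGTTTAC, present in 3.25% of promoters, had 0 matches in the 4 windows, as did the SOX core ACAANG (36.4%), the RUNX core TGTGGT (14.1%) and the short CRE core TGACG (19%). Both strands were searched, and a missing match says only that these letters are not in this window. The windows differed in composition. The Creb5 and Sox11 windows were rich in G and C (56.4% and 56.8%) and held 16 and 14 CpG dinucleotides, whereas the Foxa2 and Runx1 windows held 42.8% and 37.2% G and C and 5 and 6 CpG. Over all promoters the median was 52% G and C with 6 CpG.

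The control probe sets were not level between arrays. The mean of the 18 hybridization controls, which are added RNAs of equal amount, lay at 0.44 in PZ and 0.50 in FCC but between -0.15 and -0.02 in the other 3 arrays. The 5′ probe set of beta-actin minus its 3′ probe set was 1.24 in FCC and at most 0.14 elsewhere, and the same difference for GAPDH was 1.36 in PZ and at most 0.27 elsewhere. The part of these technical differences in the values of PZ and FCC was not tested. Cartilage matrix genes were high in FCC and genes of tendon and fibrous tissue in FZ, while markers of blood-forming cells were highest in MZ and HZ, as given beside the members below.

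Of the 21 probe sets, 11 differed by at least 2 between some pair of arrays, compared with 6.51% of all 31042 probe sets. Without the FCC array, which many of these pairs share, 4 of the 21 did so, compared with 2.81% of all. The 11 belonged to Creb5 (5), Bcl11b (2), Sox4 (2), Foxa2 (1) and Mef2c (1), whereas no probe set of Runx1 or Sox11 did so. The members were chosen on these values, and nothing is read from the excess over the background. Gene by gene, the range over the 5 arrays was 4.60 for Foxa2, 3.53 for Bcl11b, 3.40 for Creb5, 1.71 for Mef2c, 1.33 for Runx1, 1.20 for Sox4 and 0.14 for Sox11. The median range over 14217 named genes was 0.61. The description of these genes as zonal therefore did not hold for Sox11, whose single probe set was flat, and for Sox4 it held between MCC and FCC rather than among the MCC zones.

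**Figure D1:**
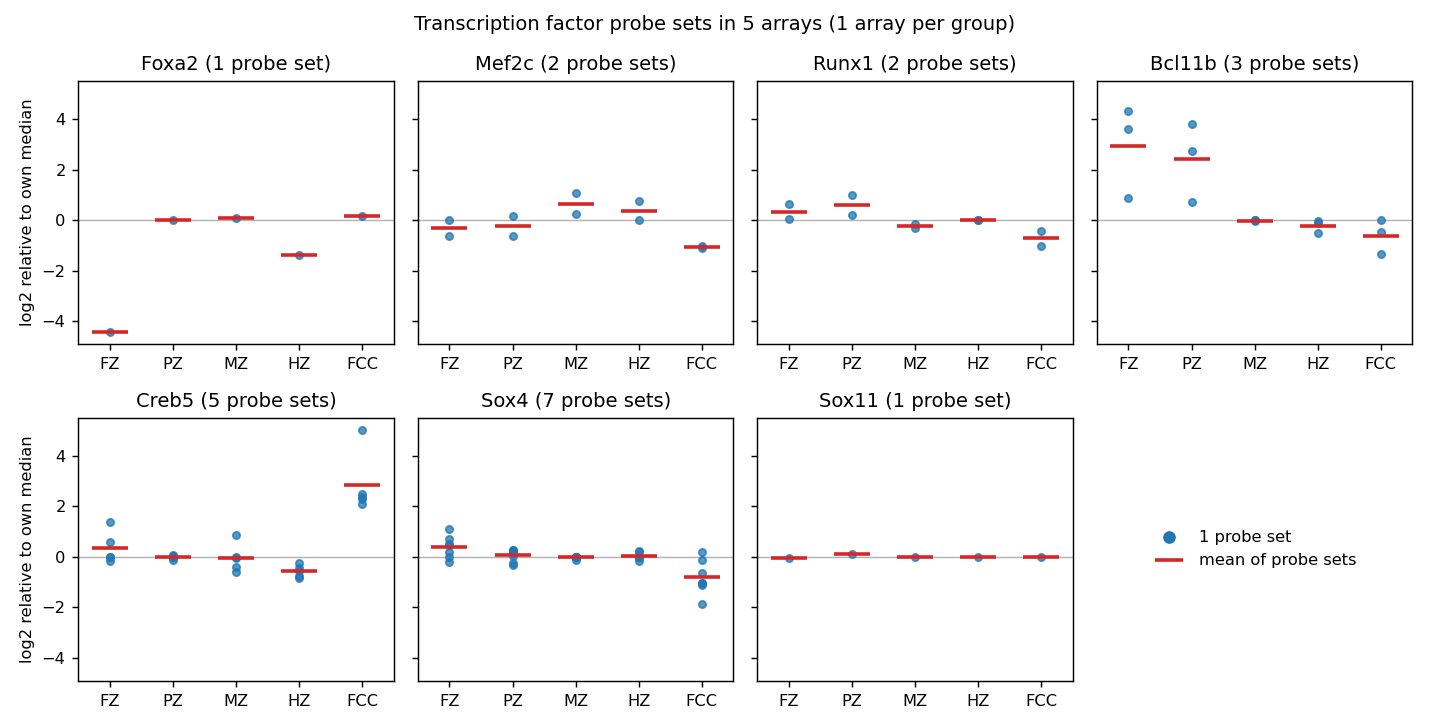
Values of the 21 probe sets in the 5 arrays. The vertical axis is log2 signal relative to the median of each probe set, blue points are single probe sets and red bars their mean per gene. Foxa2 was low in FZ (-4.43), Bcl11b was high in FZ and PZ (means 2.93 and 2.43), Creb5 was high in FCC (mean 2.84), and Sox11 stayed between -0.03 and 0.12.

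Against FCC, 9 of the 21 probe sets differed by at least 2 in FZ (2.13% of all probe sets), 7 in PZ (2.43%), 5 in MZ (2.47%) and 6 in HZ (3.55%). Creb5 accounted for 4, 5, 4 and 5 of these, all lower in the MCC zone. The probe sets higher in the MCC were 2 of Bcl11b and 2 of Sox4 in FZ, 2 of Bcl11b in PZ, 1 of Mef2c in MZ and 1 of Sox4 in HZ. Foxa2 was lower in FZ than in FCC.

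Between MCC zones fewer probe sets reached this size. FZ and PZ differed in 1 member probe set, that of Foxa2 (0.609% of all probe sets). FZ and MZ differed in 3 (0.854%) and FZ and HZ in 4 (1.25%), which were Foxa2 on the low side and 2 of Bcl11b on the high side in both, with 1 of Creb5 higher in FZ than in HZ. PZ and MZ differed in 2 (1.11%) and PZ and HZ in 2 (1.74%), all of Bcl11b. MZ and HZ differed in 0 of the 21, with 0.158% of all probe sets past the threshold. Among adjacent zones, a difference of at least 4-fold was thus found between FZ and PZ for Foxa2 and between PZ and MZ for 2 probe sets of Bcl11b. Between MZ and HZ it was found for none of the 21 probe sets.

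Foxa2 was the member with the widest range, and it was marked by a low value in the fibrous zone. Its probe set 1368711_at read -4.43 in FZ, 0.00 in PZ, 0.08 in MZ, -1.37 in HZ and 0.17 in FCC. PZ, MZ and FCC lay within 0.17 of each other, HZ was lower and FZ far lower. The log2 difference was -4.43 for FZ minus PZ, -4.52 for FZ minus MZ and -3.06 for FZ minus HZ. Among probe sets with a single gene symbol, 2 read lower in FZ relative to their own median. The mean of FZ and PZ minus the mean of MZ and HZ, called superficial minus deep from here on, was -1.57 for Foxa2, but this came from FZ alone, since PZ stood 1.37 above HZ. Of 14217 named genes, 3.78% had a superficial minus deep difference of -1 or lower, and Foxa2 was the only member among them.

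The genes most like Foxa2 over the 5 arrays all encode chains of type IX collagen, which coats the type II fibrils of hyaline cartilage. Likeness was the root mean square difference between the values of 2 genes, and it was 0.30 for Col9a3, 0.91 for Col9a1 and 0.95 for Col9a2. Col9a3 read -4.07 in FZ, 0.05 in PZ, 0.00 in MZ, -1.66 in HZ and 0.64 in FCC. It thus had the same order of zones as Foxa2 within the MCC, except that PZ was slightly above MZ, and a higher value in FCC. Col9a1 read -4.53 in FZ and 2.13 in FCC, and its high value in FCC was not shared by Foxa2. No named gene came within a root mean square difference of 0.2 of Foxa2. The values share 5 arrays and their processing, and likeness says nothing of shared control.

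Hyaline cartilage matrix genes in general were less like Foxa2. Of 22 listed, 20 were measured, and their median read -1.06 in FZ, 0.00 in PZ, 0.17 in MZ, -1.13 in HZ and 1.90 in FCC. In 18 of the 20 the MCC mean was lower than FCC by at least 1, compared with 4.7% of all named genes. Col2a1, the chain of type II collagen, read -2.49 in FZ and 0.09 in FCC as a mean of 3 probe sets that disagreed in FCC, where they read -2.12, 1.55 and 0.85. Foxa2 also had a negative MCC minus FCC difference of -1.60, which came from FZ and HZ, because PZ and MZ differed from FCC by -0.17 and -0.09.

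Markers of chondrocyte hypertrophy shared at most a part of the pattern of Foxa2. Of 16 listed, 13 were measured and 5 had a superficial minus deep difference of -1 or lower and 0 of 1 or higher, and the median was -0.49. Col10a1, the type X collagen of hypertrophic cartilage, read -2.73 in FZ, -1.61 in PZ, 0.62 in MZ, 0.37 in HZ and 0.00 in FCC. Ihh, the hedgehog ligand of prehypertrophic chondrocytes, read -1.22, -0.45, 1.23, 0.00 and 1.81 in the same order of arrays. Both were thus low in FZ like Foxa2, but PZ was on the low side of MZ for both, whereas Foxa2 in PZ was level with MZ. Ihh also read highest in FCC and lower in HZ than in MZ, as Foxa2 did.

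The paralogs of Foxa2 were nearly flat. Foxa1, the sister pioneer factor, had a range of 0.13, and Foxa3 had a range of 0.51 with its highest value of 0.46 in FCC. Of 28 measured FOX family genes, 1 was higher and 1 lower in the superficial zones by at least 1, and these were Foxd2 and Foxa2. With the arrays shifted to equal hybridization controls, 2 were lower. Foxd2 read 1.21 in FZ, 0.00 in PZ, -2.32 in MZ, -2.95 in HZ and 0.72 in FCC. It was thus highest in FZ, where Foxa2 was lowest. Foxp2, known from brain and cartilage development, was high in FCC alone at 2.85, with MCC values between -0.83 and 0.24. Genes of epithelium and liver, the tissues where FOXA2 is best known, had a median of -0.08 in FZ and 0.00 in MZ and HZ over 11 measured genes, and 0 of them differed by 1 or more between superficial and deep zones.

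**Figure D2:**
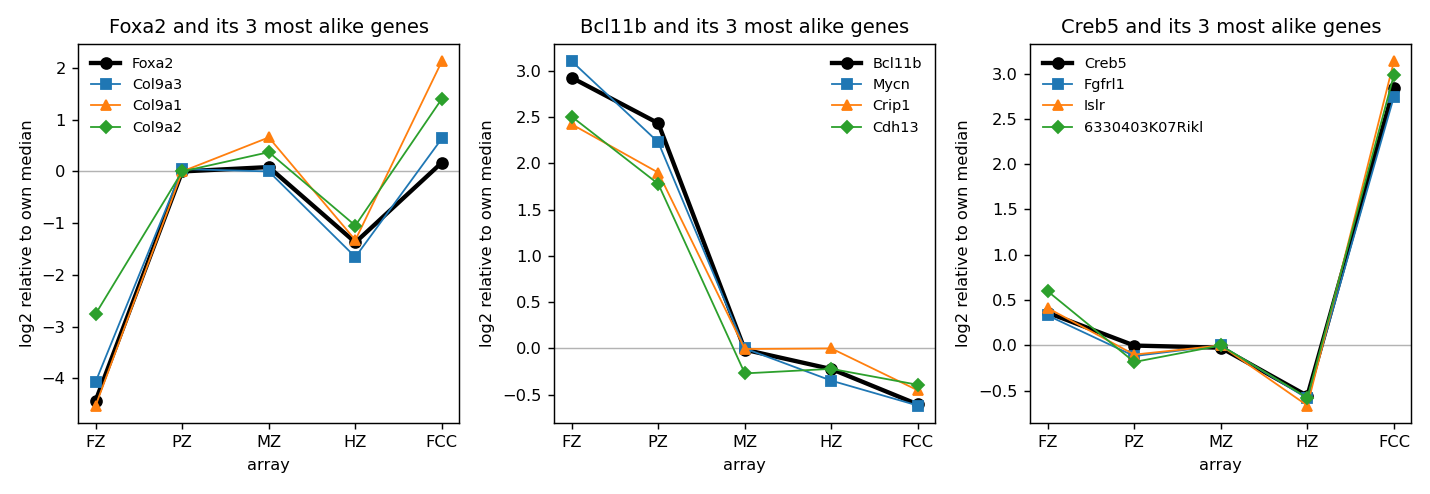
Foxa2, Bcl11b and Creb5, each with the 3 named genes of smallest root mean square difference. The vertical axis is log2 signal relative to the gene's own median, the horizontal axis the 5 arrays, and lines join the values of 1 gene for legibility. Foxa2 and Col9a3 reached -4.43 and -4.07 in FZ, Bcl11b and Mycn 2.93 and 3.11 in FZ, and Creb5 and Fgfrl1 2.84 and 2.75 in FCC.

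Bcl11b was high in both superficial zones. Its probe set 1384944_at read 4.31 in FZ, 3.83 in PZ, 0.00 in MZ, -0.11 in HZ and -0.47 in FCC. The probe set 1391948_at read 3.61, 2.75, 0.00, -0.52 and -1.35 in the same order. The probe set 1378520_at read 0.87, 0.73, -0.04, -0.04 and 0.00. In all 3 probe sets FZ was highest and PZ next, and both lay above each of MZ, HZ and FCC, but the size differed much between probe sets.

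Superficial minus deep differences were 4.12, 3.44 and 0.84 for the 3 probe sets of Bcl11b, with a mean of 2.80 and an SD between probe sets of 1.73. Among the 4525 genes with several probe sets the median of this SD was 0.20, and 0.177% of them had an SD at least as large as that of Bcl11b. FZ minus PZ was 0.48, 0.86 and 0.14, positive in all 3 probe sets and without a replicate check. No named probe set read higher in PZ relative to its own median than 1384944_at, and 3 read higher in FZ. Of all named genes, 2.24% had a superficial minus deep difference of at least 1, and Bcl11b was the only member among them. MCC minus FCC was 1.89 (SD between probe sets 1.32), and 5.13% of named genes were higher in the MCC by at least 1. Within the MCC, however, MZ and HZ stood only 0.59 and 0.38 above FCC.

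The paralog Bcl11a, a repressor of fetal globin genes that is also needed in B lymphocytes, had the opposite order of zones. Its probe set 1383010_at read 0.00 in FZ, -0.24 in PZ, 1.02 in MZ, 2.92 in HZ and -0.67 in FCC. The probe set 1383506_at read -0.10, 0.00, 0.62, 1.4 and -0.54. Superficial minus deep differences were -2.09 and -1.06, against the positive values of all 3 Bcl11b probe sets. Both Bcl11a probe sets and 2 of 3 of Bcl11b read lowest in FCC, and the share of all probe sets lowest in FCC was not counted.

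Bcl11b is a defining gene of the T lymphocyte lineage, so T lymphocyte markers were read beside it. Of 16 listed, 15 were measured, and 0 were higher and 2 lower in the superficial zones by at least 1, with medians between -0.04 and 0.02 in all 5 arrays. The 2 that were lower were Cd3g (-2.18) and Cd3d (-1.28), chains of the T cell receptor complex, which read highest in HZ at 2.45 and 0.98. These 2 markers thus read highest in HZ, where Bcl11b was low. The part of T lymphocytes in the Bcl11b values was not tested. Tcf7, a WNT pathway factor used in T lymphocytes and in mesenchyme, had the largest positive difference of the list, 0.88.

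Among genes of tendon and fibrous connective tissue, high superficial values were found for some, and the list median was highest in FZ. The list median read 0.75 in FZ, 0.07 in PZ, 0.00 in MZ, -0.35 in HZ and 0.00 in FCC. Of 21 measured, 11 had a superficial minus deep difference of at least 1 and 0 of -1 or lower, and the median was 1.01. Tnmd, the tendon membrane protein tenomodulin, read 5.29 in FZ, 2.86 in PZ, -0.37 in MZ, -0.35 in HZ and 0.00 in FCC. Dpt, Aspn and Col14a1, which encode matrix proteins of fibrous tissue, had superficial minus deep differences of 4.79, 3.88 and 3.76. Unlike Bcl11b, Tnmd and Dpt were well above PZ in FZ, with Dpt at 4.17 and 2.38 in FZ and PZ, and Col14a1 was also high in FCC at 1.69. Other genes of the list had closer values in these zones. Aspn read 2.87 in FZ and 2.64 in PZ, Postn 1.06 and 0.98, and Col12a1 was higher in PZ (0.71) than in FZ (0.44). The cell source of these transcripts was not tested.

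The gene most like Bcl11b was Mycn, an oncogenic MYC family factor of progenitor cells, at a root mean square difference of 0.13. Mycn read 3.11 in FZ, 2.23 in PZ, 0.00 in MZ, -0.35 in HZ and -0.62 in FCC. Crip1, a LIM domain protein, and Cdh13, a membrane-anchored cadherin, followed at 0.35 and 0.38. Mycn was the only named gene within 0.2 of Bcl11b.

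Creb5 was high in femoral cartilage, and the zones of the jaw differed less from each other than from FCC. All 5 probe sets read highest in FCC. The widest, 1378645_at, read 1.37 in FZ, 0.00 in PZ, -0.04 in MZ, -0.82 in HZ and 5.03 in FCC. The other 4 probe sets read 2.35, 2.27, 2.48 and 2.08 in FCC, and between -0.76 and 0.88 in the MCC. The 1 FCC array therefore read above each MCC zone in all 5. The share of all probe sets that read highest in FCC was not counted. Averaged over probe sets, Creb5 read 0.36 in FZ, 0.00 in PZ, -0.02 in MZ, -0.56 in HZ and 2.84 in FCC.

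The MCC minus FCC difference of Creb5 was -2.90, with single probe sets between -4.91 and -2.22 and an SD between them of 1.13. Taken zone by zone, FZ differed from FCC by -2.48, PZ by -2.85, MZ by -2.87 and HZ by -3.40, so each zone gave a difference of similar size. Of genes with several probe sets, 2.45% had an SD as large as this one. Relative to their own medians, 21 probe sets read higher in FCC than the highest of Creb5. Within the MCC the range of its mean was 0.92, with FZ highest and HZ lowest, and superficial minus deep was 0.47 with an SD between probe sets of 0.52 and single values from -0.13 to 1.11. The order among zones thus differed between probe sets, whereas the order of FCC above the MCC did not.

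Fgfrl1, a receptor-like FGF binding protein needed in skeletal development, was most like Creb5 at a root mean square difference of 0.07, followed by Islr (0.15), a secreted immunoglobulin and leucine-rich repeat protein, and 6330403K07Rikl (0.15). Fgfrl1 read 0.33 in FZ, -0.12 in PZ, 0.00 in MZ, -0.58 in HZ and 2.75 in FCC. Creb5 and hyaline cartilage matrix genes shared their high values in FCC, where the list median was 1.90. Chad, Mia and Prelp, which encode matrix or secreted proteins of cartilage, had MCC minus FCC differences of -5.96, -6.47 and -4.26. Of 6 measured genes of the superficial and lubricating layer of joints, 2 were higher and 3 lower in the MCC than in FCC, with Cilp2, a cartilage matrix protein, at -3.69 and the hyaluronan receptor Cd44 at 1.90. Prg4, the gene of lubricin, was not analysed here. Unlike Foxa2, none of the Creb5 probe sets was low in FZ. The beta-actin 5′ control also stood apart in FCC, as given above, and its part in the FCC values of Creb5 was not tested.

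Of the 24 measured CREB, ATF and AP-1 genes, 2 were higher and 3 lower in the MCC than in FCC by at least 1, with a median of 0.00, and Creb5 was among the lower ones. With equal hybridization controls these counts were 4 and 3. Fosb, an immediate early AP-1 subunit, read highest in FCC at 3.12, with -0.53 in FZ, 0.96 in PZ and 0.00 in the other MCC zones, a difference as large as that of Creb5. Atf3, a stress-responsive factor, differed in the other direction and read 0.42, 0.79, 0.00, -0.28 and -1.57. Atf4 and Atf5, factors of the integrated stress response, were low in PZ at -1.71 and -1.57. Atf2, a paralog of Creb5, was nearly flat with a range of 0.26, and Atf7 was not analysed here.

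Mef2c was lowest in FCC and highest in MZ. Its probe set 1372332_at read -0.62 in FZ, 0.15 in PZ, 0.25 in MZ, 0.00 in HZ and -1.01 in FCC. The probe set 1373410_at read 0.00, -0.62, 1.07, 0.75 and -1.11. They shared the highest array, MZ, and the lowest, FCC, but disagreed on the order of FZ and PZ, with FZ minus PZ at -0.78 in the first and 0.62 in the other. The mean MCC minus FCC difference was 1.18 (SD between probe sets 0.32), and Mef2c was thereby with Bcl11b among the named genes higher in the MCC by at least 1. MZ stood 1.71 and HZ 1.43 above FCC, and FZ and PZ stood 0.74 and 0.82 above it. Superficial minus deep was -0.79 (SD between probe sets 0.61).

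Mef2c is also used by B lymphocytes, endothelial cells, osteocytes and muscle, and the markers of these cells were read beside it. Endothelial markers had a median of -0.12 in FZ, -0.08 in PZ, 0.63 in MZ, 0.39 in HZ and -0.34 in FCC over 14 measured genes. Like Mef2c, this median was highest in MZ and lowest in FCC, but it lay less far down in FCC than Mef2c at -1.06. B lymphocyte markers had a median of -0.05, -0.16, 0.51, 1.45 and -0.91 over 7 measured genes, of which 5 were lower in the superficial zones by at least 1, or 3 without the PZ array. Osteoblast and osteocyte markers had medians of 0.00, -0.52, 0.30, 0.26 and -0.43 over 10 genes. Skeletal muscle markers stayed between medians of -0.06 and 0.10. The part of endothelial, B lymphocyte, bone and muscle cells in the Mef2c values was not tested.

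The genes most like Mef2c were Cd180 (root mean square difference 0.12), a surface protein of B lymphocytes and macrophages, Alcam (0.14), a cell adhesion molecule, and Sox18 (0.15), a factor of endothelial cells. Sox18 read -0.12 in FZ, 0.00 in PZ, 0.72 in MZ, 0.43 in HZ and -0.96 in FCC. There were 27 named genes within 0.2 of Mef2c. Of its family, Mef2a had 4 probe sets with ranges from 0.48 to 1.43, Mef2d had ranges of 0.39 and 1.20, and Mef2b had a range of 0.32. The probe sets of Mef2a and Mef2d with the largest MCC minus FCC differences, 1.08 and 1.01, were lowest in FCC like those of Mef2c. Among the 7 measured genes of the MEF2 family and the class IIa histone deacetylases that repress it, Mef2c alone differed by at least 1 between MCC and FCC.

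Runx1 was highest in PZ and lowest in FCC in both probe sets. The probe set 1395442_at read 0.66 in FZ, 1.02 in PZ, -0.13 in MZ, 0.00 in HZ and -0.41 in FCC. The probe set 1368914_at read 0.03, 0.22, -0.31, 0.00 and -1.02. The means were 0.35 in FZ, 0.62 in PZ, -0.22 in MZ, 0.00 in HZ and -0.71 in FCC. MCC minus FCC was 0.90 (SD between probe sets 0.15) and superficial minus deep 0.59 (SD between probe sets 0.44), so neither reached 1. MCC minus FCC became 1.34 when the arrays were shifted to equal hybridization controls.

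Runx1 is a factor of blood-forming cells, whose markers had another order of zones. Markers of hematopoietic progenitors had a median of 0.00 in FZ, -0.21 in PZ, 0.88 in MZ, 1.13 in HZ and 0.00 in FCC over 9 measured genes, and 6 of them were lower in the superficial zones by at least 1. The erythroid median was -0.58, -0.62, 0.89, 1.59 and 0.00, with 11 of 13 lower. Megakaryocyte and platelet markers (7 of 11 lower) and markers of neutrophils, monocytes and macrophages (6 of 12 lower) also had their medians highest in MZ or HZ. Runx1 as a mean read higher in FZ and PZ, the zones where these list medians were low, than in MZ and HZ, where they were high. The part of blood-forming cells in the Runx1 values was not tested.

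By the range of gene means over all arrays, the other RUNX and CBF genes varied less than Runx1 (1.33), and Runx1t1 came next at 1.02. Between superficial and deep zones, however, Runx1t1 differed more than Runx1, with superficial minus deep at 0.83 against 0.59. Runx3 had ranges of 0.72 and 0.39 in its 2 probe sets and Cbfb, the shared DNA-binding partner of RUNX proteins, had ranges of 0.18 and 0.85. Of 6 measured genes of this list, 0 differed by at least 1 in either contrast. Under the shift just given Runx1 did so, and with the widest probe set per gene 1 was higher in the superficial zones. Runx2, the RUNX factor of osteoblasts and hypertrophic chondrocytes, was not analysed here. The genes most like Runx1 were Ccdc124 (0.07), Dusp9 (0.10) and Get1 (0.12), among 65 within 0.2.

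Sox4 was lower in FCC than in the jaw in most of its probe sets and differed less among the MCC zones. Its 7 probe sets read from -0.19 to 1.10 in FZ, from -0.33 to 0.28 in PZ, from -0.13 to 0.00 in MZ, from -0.15 to 0.23 in HZ and from -1.85 to 0.21 in FCC. FCC was the lowest array in 5 of 7, and the share of all probe sets lowest in FCC was not counted. The widest probe set, 1373860_at, read 0.48 in FZ, -0.22 in PZ, 0.00 in MZ, 0.18 in HZ and -1.85 in FCC. The probe set 1383989_at read 1.10, 0.28, -0.13, 0.00 and -1.09. By contrast, 1375123_at and 1375257_at read -0.13 and 0.21 in FCC and had ranges of 0.42 and 0.38.

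The mean MCC minus FCC difference of Sox4 was 0.92, with an SD between probe sets of 0.75 and single values from -0.19 to 1.96. It became 1.36 when the arrays were shifted to equal hybridization controls. Superficial minus deep was 0.22, with an SD between probe sets of 0.30. The range of the mean within the MCC was 0.42, and 47.7% of named genes had a smaller one. For comparison, 99.8% of named genes had a smaller range within the MCC than Foxa2, 99.3% than Bcl11b, 81.8% than Mef2c, 80% than Creb5, 77% than Runx1 and 11.3% than Sox11. Vim, the intermediate filament of mesenchymal cells, was among the 3 genes most like Sox4 (0.05), with Actr1a (0.03) and Dtx4 (0.05), but 257 genes lay within 0.2.

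Cell cycle genes were also lower in FCC than in the MCC. Of 22 measured, 18 were higher in the MCC by at least 1 and 0 lower. The median of the differences was 1.30, and the median in FCC was -1.30. Their medians in FZ, PZ, MZ and HZ were 0.07, -0.16, 0.00 and 0.30, but single genes differed more among these zones, with ranges within the MCC from 0.22 to 2.04 and a median range of 0.83. Ccna2, the S and G2 phase cyclin, had the largest difference, 2.07, and the kinases and checkpoint proteins Bub1b, Bub1 and Aurkb had differences of 1.59, 1.58 and 1.54. FCC was the lowest array for 20 of the 22, as it was for the means of Sox4, Runx1 and Mef2c, and the share of all named genes lowest in FCC was not counted. The part of dividing cells in the values of Sox4, Runx1 and Mef2c was not tested.

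Sox11 did not differ between the arrays beyond small values. Its probe set 1387275_at read -0.03 in FZ, 0.12 in PZ and 0.00 in MZ, HZ and FCC. A range of 0.14 or less was found in 7.64% of all probe sets, and 6078 named genes lay within a root mean square difference of 0.2 of Sox11. Because the values hold no level, a gene that is steady and a gene that is not detected cannot be told apart. Neuronal genes, whose tissue is the best known site of Sox11, also had medians near 0, from -0.04 to 0.12 over 12 measured genes. However, 2 of them had a range of at least 2, Gap43 with 1.11 in FZ and -0.92 in HZ, and Dcx with 2.07 in FCC. Sox12, the remaining SOXC gene, had a range of 0.37.

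In the SOX family, 14 of 19 listed genes were measured. No SOX gene differed by 1 or more between superficial and deep zones, and 1, Sox18, was higher in the MCC than in FCC by at least 1. With equal hybridization controls the latter count was 3, with Sox4 at 1.36. With the widest probe set per gene, 1 SOX gene was lower in the superficial zones and 2 were higher in the MCC by at least 1. Sox6, a factor that acts with SOX9 in chondrocytes, read highest in PZ in both probe sets, at 1.35 and 0.57. Sox5 and Sox9 were not analysed here.

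**Figure D3:**
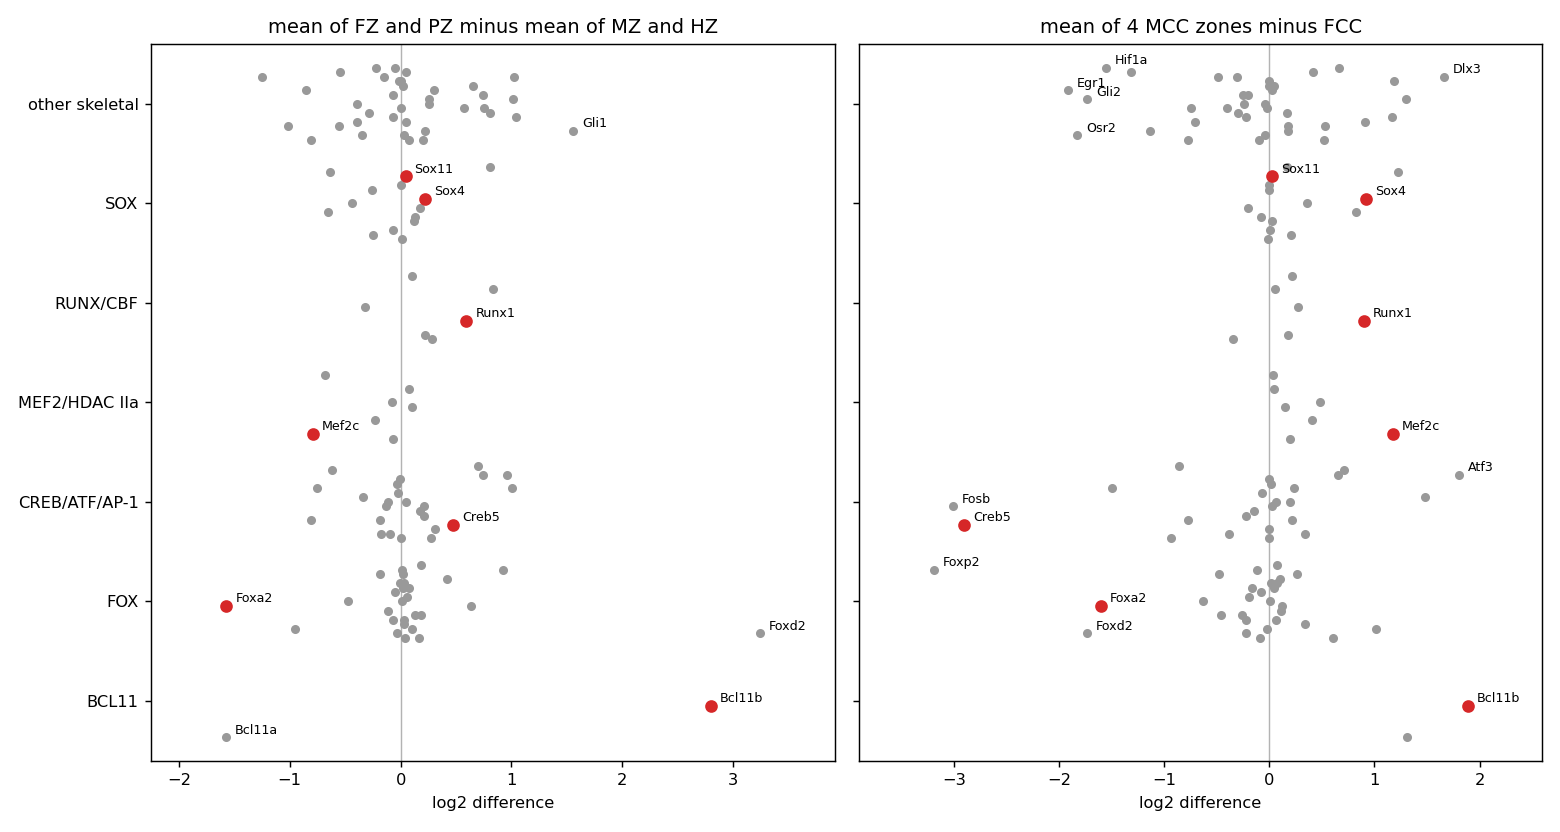
Log2 differences of the 7 members (red) and of the other measured genes of their families and of a list of skeletal transcription factors (grey). The left panel shows the mean of FZ and PZ minus the mean of MZ and HZ, the right panel the mean of the 4 MCC zones minus FCC, and the vertical offset within a family only separates the points. Bcl11b lay at 2.80 and Foxa2 at -1.57 on the left, and Creb5 at -2.90 on the right, with Foxd2, Foxp2 and Fosb lying as far out or farther.

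Across the 7 transcription factor lists, 113 factors were measured once each, 7 members and 106 others. Of the others, 11 had a range of at least 2, and 3 of the 7 members did as gene means, namely Foxa2, Bcl11b and Creb5, compared with 6.68% of all named genes. Of 37 measured skeletal transcription factors, 4 were higher and 2 lower in the superficial zones by at least 1, and 4 were higher and 6 lower in the MCC than in FCC. With equal hybridization controls these counts were 1 and 3, and 6 and 4. Dlx3, a homeobox factor of bone and skin, read 0.00 in FZ, -0.19 in PZ, 1.10 in MZ, 1.21 in HZ and -1.13 in FCC. It shared with Mef2c the high values in MZ and HZ and the lowest value in FCC, but read highest in HZ where Mef2c read highest in MZ. Gli1, the target and effector of hedgehog signals, was low in HZ alone at -2.24. Gli2 and Egr1, a zinc-finger immediate early gene, read highest in FCC at 1.63 and 1.56, like Creb5.

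The members were seldom like each other. The closest pair was Runx1 and Sox4 at a root mean square difference of 0.27, both low in FCC. Sox4 and Sox11 differed by 0.41, and the widest pair was Foxa2 and Bcl11b at 3.52. These were opposite in FZ, where Foxa2 read -4.43 and Bcl11b 2.93.

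**Figure D4:**
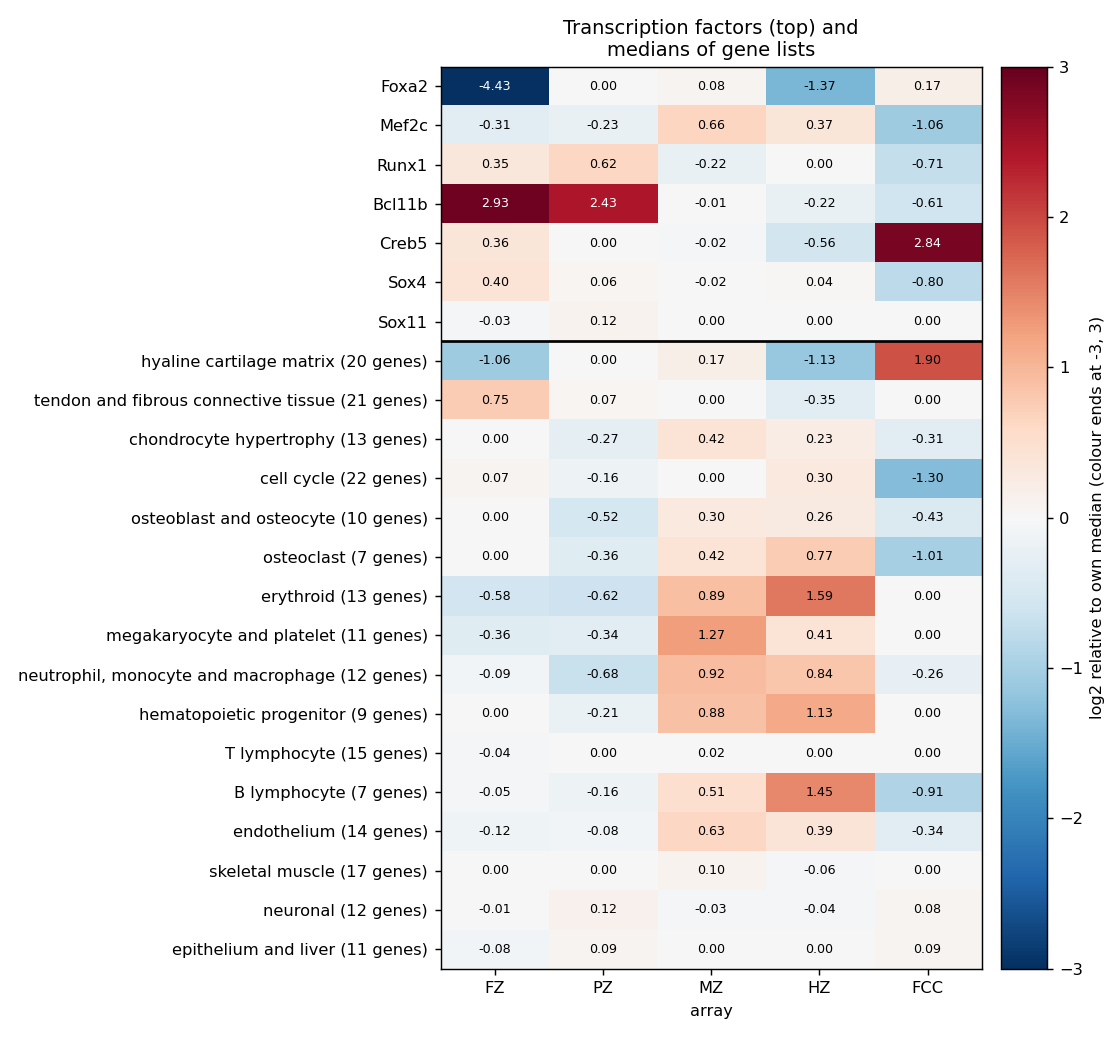
Values of the 7 members (top, mean of probe sets) and medians of 16 gene lists (bottom) in the 5 arrays. Colour and printed numbers are log2 signal relative to each gene's own median. Bcl11b was high in FZ and PZ where the T lymphocyte median was -0.04 and 0.00, Mef2c and the endothelial median were both highest in MZ (0.66 and 0.63), and Creb5 and the hyaline cartilage matrix median were both highest in FCC (2.84 and 1.90).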

How the data were processed

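Laser-captured RNA was measured on Affymetrix rat arrays after 2 cycles of amplification, with 1 array per group, and this number limits the precision. The deposited values are log2 relative signals: according to the methods the authors used RMA with quantile normalization and baselined each probe set to its median, and background correction under MAS5 is also described. Both names appear in the submitters' processing notes, with no version. The genome build was not given in the sources used here. All values, 31042 probe sets without the 57 controls, were used unfiltered, since they hold no level.

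Differences, counts at an absolute log2 difference of 2 (probe sets) or 1 (means of probe sets per gene, for 24 gene lists) and likeness were computed with pandas 2.3.3 and numpy 2.4.6 in Python 3.11.15 and drawn with matplotlib 3.10.9, and the code was tested on simulated data. Of the probe sets, 20826 had 1 gene symbol, updated through the RefSeq gene table. Genes named were the members, list factors with a range of 2 or more, direct paralogs, the 3 most alike genes, and per list up to 4 with the largest differences besides fixed markers. The members and lists were chosen with earlier results of these data known. Alternatives were other scalings, thresholds and values per gene. The planned protein comparison of Sox4 and Sox11 was not run.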

Additional observations from a re-analysis of the deposited data

How the results depend on the processing

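Centring the arrays moved no value, because each array was already centred on its median, so this setting could alter no result. At a threshold of 1 the member probe sets past it were 17 for any pair (11 at 2), 16, 14, 11 and 13 for FZ, PZ, MZ and HZ against FCC, 2 for FZ and PZ, 7 for FZ and MZ, 5 for PZ and MZ, 5 for PZ and HZ and 2 for MZ and HZ, which had 2 at 1.4 as well. At 1, 26.9% of all probe sets passed for any pair, between 9.69% and 13.6% against FCC and between 1.13% and 11.2% among MCC zones. At 1.4, 0.412% of all probe sets passed for MZ and HZ. With 1 value per gene there were 7 genes in place of 21 probe sets. The count for any pair was then 3, while 6.68% of named genes passed. Against FCC the counts were 3 in FZ (2.33% of named genes), 2 in PZ (2.36%), 1 in MZ (2.6%) and 1 in HZ (3.69%). For FZ they were 1 against PZ (0.724%), 2 against MZ (1.1%) and 2 against HZ (1.4%). Among the remaining MCC pairs they were 1 for PZ and MZ (1.26%), 1 for PZ and HZ (1.88%) and 0 for MZ and HZ (0.239%). Without the FCC array, a setting chosen after seeing the data, the count for any pair was 4 in place of 11. Shifting the arrays to equal hybridization controls moved the median of all probe sets to -0.44 in PZ and -0.50 in FCC. MCC minus FCC then became -1.16 for Foxa2, 1.62 for Mef2c, 1.34 for Runx1, 1.36 for Sox4 and 0.46 for Sox11, so Runx1 and Sox4 passed 1. With the widest probe set per gene, superficial minus deep was 1.11 for Creb5, and MCC minus FCC was -4.91 for Creb5 and 1.96 for Sox4. At a threshold of 2 the lists gave 6 tendon, 1 cell cycle and 5 erythroid genes where 11, 18 and 11 passed 1. None of the called values changed sign under the settings run. The other 92 list counts leave out these tendon, cell cycle and erythroid counts and the count of hyaline cartilage matrix genes lower in the MCC. Of the 92, 44 moved at a threshold of 2, 21 under the control shift, 14 with the widest probe set and 13 without PZ. A count was called moved if it changed by over 1.5 times, or rose from none or fell to none. The most alike genes depended on the measure. With correlation, 1 of 3 was shared for Foxa2, Mef2c, Runx1 and Sox4, 2 of 3 for Bcl11b and Creb5, and 0 for Sox11. With the widest probe set per gene, 0 of 3 were shared for Mef2c, Runx1, Creb5 and Sox4. For Foxa2 and Bcl11b 2 of 3 were then shared, and for Sox11 all 3. No paired analysis was possible because each group has 1 array.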
